A study of Setaria viridis with 24 samples.

Results

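Gene expression in the crown of drought-treated Setaria viridis plants was compared between 9 and 6 days after sowing. Setaria viridis is a small C4 grass that serves as a model for cereal crops. The comparison holds every gene listed in the authors' deposited table for that pair of groups, 19492 of the 20865 genes listed in any table of the series. Of the 1373 genes left out of it, 1319 stood under 2 FPKM on both days in the drought crown, and each listed gene reached at least 1.97 FPKM on 1 of the days.

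The groups used here were the crown of drought-treated plants at day 9 and at day 6, the crown of watered plants at day 9 and at day 6, and the stem of drought-treated and of watered plants on the same days. Crown is the submitters' name for the lower region of the shoot and stem for the upper region. Plants grew in a mix of sand and peat, and the material of 20 plants was harvested for each sample. The labels name no line or genotype, and they give neither the start nor the strength of the drought. Each group had 3 libraries, 1 from each of 3 biological repeats, and 10 M reads were aimed for per library. Libraries came from RNA depleted of ribosomal RNA and kept the strand of the transcript.

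The crown is the compact base of a grass shoot, where stacked nodes lie close together. Shoot-borne roots, also called crown or nodal roots, arise from these nodes after the seedling root and come to form most of the root system of a mature grass. Root initiation, elongation of young leaves and vascular connection proceed together in this small piece of tissue, and the supply of water is known to influence the growth of shoot-borne roots. The series asks how grasses hold back such roots in drought, and the age comparison shows which genes changed in the drought crown between the 2 harvests.

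Levels are given as FPKM, which corrects fragment numbers for gene length and for library size, and each FPKM is the authors' single value for a group of 3 libraries. It has no standard deviation, and the depth of the libraries is unknown. A fold change is day 9 over day 6 on the log2 scale. A gene is called, and is said to have risen or fallen, where the authors' adjusted p (q) is under 0.05. Standard errors (SE) of log2 fold changes were computed from the authors' test statistics, and their median was 0.33. For genes with a group under 2 FPKM these SE can be smaller than the deposited p-value implies, so none is printed for such a gene. The smallest deposited p is 5e-05, which corresponds to q = 0.00091, so genes at that value are not ranked among themselves. The files pair no identifier with a gene name or function, 0 of the identifiers matched the reference name table, and genes are therefore given by identifier and by position in the files, whose genome build is not named. For the same reason defining markers of crown or root tissue were not analysed here. In pieces of whole tissue, fewer cells of a type and less RNA per cell cannot be told apart.

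In the drought crown, 2057 genes (10.6%) were called between the days. At day 9, 1553 genes (7.97%) were higher and 504 (2.59%) were lower than at day 6. The rises were also the larger changes. Among the higher genes above 0 FPKM on both days the median log2 fold change was 1.66, and among the lower genes it was -1.10, against 0.05 over all listed genes. Of the higher genes, 562 changed more than 4-fold and 164 more than 8-fold, whereas 18 of the lower genes changed more than 4-fold and 1 more than 8-fold. The smallest called change was 0.75 on the log2 scale among higher genes and 0.71 in size among lower genes. At an unadjusted p under 0.05 the numbers were 2747 higher and 1234 lower.

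The higher genes came mostly from low levels and the lower genes from high ones. The values of both days enter the call itself, so the levels and FPKM shares given here are a description and not a test. The median level of the 1553 higher genes was 10.8 FPKM at day 9 and 2.99 FPKM at day 6. At day 6, 324 of them (20.9%) stood under 1 FPKM, against 3.12% of all listed genes. Another 156 (10.0%) stood at 20 FPKM or more, against 31.2% of all listed genes. The median level of the 504 lower genes was 14.9 FPKM at day 9 and 31.9 FPKM at day 6. Of these, 337 (66.9%) stood at 20 FPKM or more at day 6. Genes that were not called had a median of 11.8 FPKM at day 9 and 11.6 FPKM at day 6. Summed over genes, the higher genes took 6.38% of all listed FPKM at day 9 and 2.31% at day 6. The lower genes took 2.83% at day 9 and 5.70% at day 6.

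The direction of the calls changed with the level of the gene. That level is the mean of the values that make the call, so this is a description and not a test. Under 1 FPKM stood 609 listed genes at day 6 and 37 at day 9. When listed genes were divided into 4 equal classes by their mean FPKM over both days, 601 genes were higher and 40 lower in the lowest class (mean up to 5.09 FPKM). In the next class, 419 were higher and 95 lower, and in the third 269 and 128. In the highest class (from 24.8 FPKM), 264 were higher and 241 lower. The share of called genes that were lower at day 9 was thus 6.24%, 18.5%, 32.2% and 47.7% from the lowest class to the highest. Over the upper 2 classes together, 533 genes were higher and 369 lower, a share of 40.9% lower, against 24.5% lower among all called genes. The median log2 fold change of all genes was 0.37 in the lowest class and -0.09 in the highest. The size of the called changes also depended on level. Medians of higher and lower genes were 2.05 and -1.61 in the lowest class, and 1.22 and -0.98 in the highest.

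**Figure D1:**
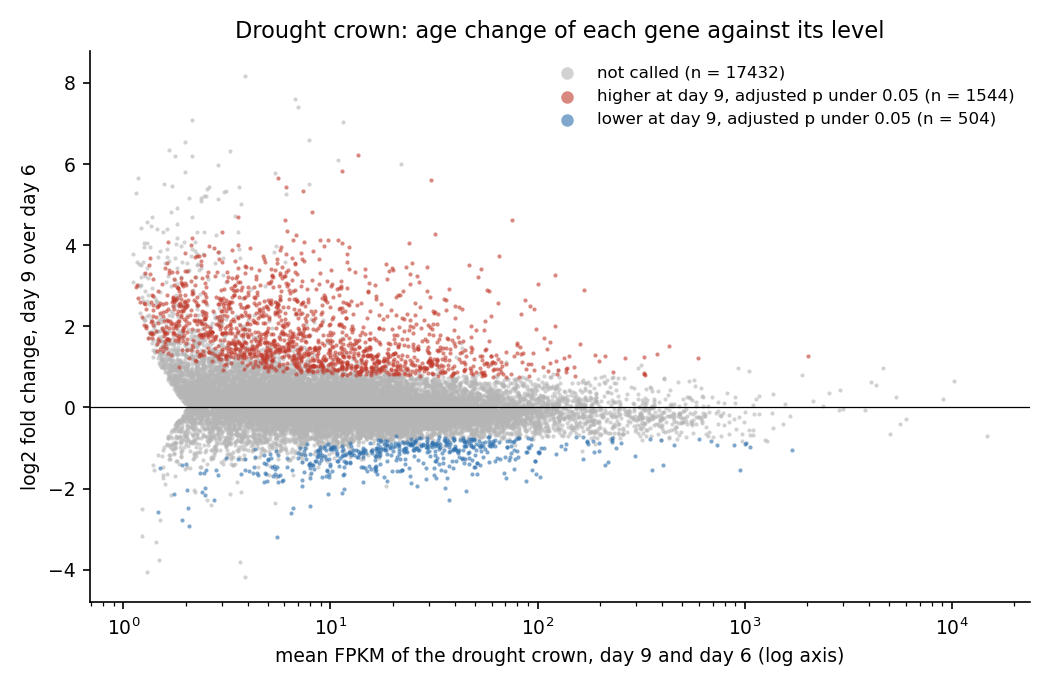
The log2 fold change of each gene in the drought crown (day 9 over day 6, vertical axis) is plotted against its mean FPKM over both days (log horizontal axis), with each point a gene above 0 FPKM on both days, red for genes higher and blue for genes lower at day 9 at an adjusted p under 0.05. Red points reach far above 2 at low levels, whereas blue points lie mostly between -0.7 and -2 and to the right.

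Sevir.8G121100 (chromosome 8, 20258230 to 20259723) had the largest rise among called genes that met the minimum level for naming, which was 13.0 FPKM in the higher of the 2 groups. It stood at 26.9 FPKM at day 9 and 0.363 FPKM at day 6 in the drought crown, a log2 fold change of 6.21 (q = 0.0215) in the authors' deposited table. In the watered crown its values were 8.44 FPKM at day 9 and 3.58 FPKM at day 6, a change that did not pass in the authors' deposited table (q = 0.104). In no stem group did it exceed 0.110 FPKM. Its day 9 value was higher and its day 6 value lower in drought crowns than in watered ones. The difference between these age changes was not tested, because a group was under 2 FPKM.

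Sevir.8G221000 (chromosome 8, 35807168 to 35810203) followed, at 22.3 FPKM at day 9 and 0.393 FPKM at day 6. Its log2 fold change was 5.82 in the authors' deposited table (q = 0.00359). It rose in the watered crown as well, to 14.2 FPKM at day 9, against 2.56 FPKM at day 6, with a log2 fold change of 2.47 (q = 0.00091) in the authors' deposited table. Sevir.3G165600 (chromosome 3, 11736218 to 11737616) had the next largest rise shared with watered crowns. It stood at 60.3 FPKM at day 9 and 1.24 FPKM at day 6 under drought, a log2 fold change of 5.60 (q = 0.00091) in the authors' deposited table, and at 23.1 and 4.97 FPKM on the same days in watered crowns (2.22, q = 0.00167). Both genes stayed at or under 0.252 FPKM in the 4 stem groups.

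The largest falls under the same minimum were smaller. Sevir.1G152600 (chromosome 1, 20082659 to 20087753) fell to 2.50 FPKM at day 9, against 13.4 FPKM at day 6, a log2 fold change of -2.42 (SE 0.39, q = 0.00091) in the authors' deposited table. In watered crowns it stood at 15.4 FPKM at day 9 and 15.1 FPKM at day 6. Sevir.6G180400 (chromosome 6, 29189839 to 29190478) fell to 12.8 FPKM at day 9, against 62.0 FPKM at day 6, a log2 fold change of -2.28 (SE 0.37, q = 0.00091) in the authors' deposited table. This gene also fell in watered crowns, to 22.6 FPKM against 104 FPKM, and in drought stems, to 333 FPKM against 793 FPKM, with log2 fold changes of -2.20 and -1.25 (both q = 0.00091) in the authors' deposited tables. It was lower in each of the 4 crown groups than in any stem group. Sevir.7G098200 (chromosome 7, 18336785 to 18339771) was the next largest fall that was called in watered crowns too. It stood at 10.6 FPKM at day 9 and 38.3 FPKM at day 6 under drought (log2 fold change -1.85, SE 0.36, q = 0.00091 in the authors' deposited table), and at 24.6 and 53.9 FPKM in watered crowns (-1.13, q = 0.0109). The 1 fall of more than 8-fold, named here after its value was seen, was that of Sevir.5G167100 (chromosome 5, 16077769 to 16078382), at 1.1 FPKM at day 9 and 9.99 FPKM at day 6, with a log2 fold change of -3.19 (q = 0.0258) in the authors' deposited table.

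By absolute amount, other genes led. Sevir.3G080800 (chromosome 3, 5212287 to 5213053) gained most, at 2873 FPKM at day 9 and 1188 FPKM at day 6 (log2 fold change 1.27, SE 0.41, q = 0.0191 in the authors' deposited table). It was abundant in watered crowns, at 2138 and 1102 FPKM on the same days (q = 0.0535), and lower in stems, where its highest group value was 191 FPKM. Sevir.1G111000 (chromosome 1, 9580944 to 9581884) stood at 832 FPKM at day 9 and 358 FPKM at day 6, a log2 fold change of 1.21 (SE 0.33, q = 0.00629) in the authors' deposited table. It also rose in drought stems, to 343 FPKM against 149 FPKM (q = 0.00167), whereas the change in watered crowns (494 FPKM at day 9 and 299 FPKM at day 6) did not pass (q = 0.0758). Sevir.6G242900 (chromosome 6, 34235880 to 34236015) lost most, at 1101 FPKM at day 9 and 2284 FPKM at day 6 (log2 fold change -1.05, SE 0.32, q = 0.0105 in the authors' deposited table). Its entry spans only 135 bp in the files, and a level scaled to so short a length is less certain than that of a longer gene. Sevir.5G060700 (chromosome 5, 4689650 to 4690541) stood at 486 FPKM at day 9 and 1424 FPKM at day 6, a log2 fold change of -1.55 (SE 0.36, q = 0.00091) in the authors' deposited table. In drought stems it stood at 1643 and 1622 FPKM on these days, and the difference between the crown and the stem change missed the threshold (-1.57, SE 0.50).

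Some genes were listed at 0 on 1 day, and no fold is given for them. Of the 10 genes listed at 0 at day 6, 9 were called higher. The most abundant of these were Sevir.2G260300 (chromosome 2, 34166753 to 34167107), at 8.23 FPKM at day 9 (q = 0.00091 in the authors' deposited table), and Sevir.7G160000 (chromosome 7, 22720677 to 22720881), at 7.07 FPKM (q = 0.0165). Sevir.7G160000 was at 2.64 FPKM at day 9 and 2.72 FPKM at day 6 in watered crowns. The tenth gene, Sevir.3G122100, named after its value was seen, stood at 24.9 FPKM at day 9 and was not called (q = 0.0893 in the authors' deposited table). Likewise Sevir.3G423000 and Sevir.8G152900, the 2 genes listed at 0 at day 9, stood at 2.88 and 3.66 FPKM at day 6 and were not called (0.424 and 0.0575 as q-values of the authors' deposited table). The entries of Sevir.2G260300, Sevir.7G160000 and Sevir.3G122100 span only 354, 204 and 366 bp. As for Sevir.6G242900, their levels are less certain than those of longer genes.

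Large fold changes were not always called. Another 117 genes above 0 FPKM on both days differed by more than 8-fold without passing, 111 of them higher and 6 lower at day 9. Their median level was 0.220 FPKM in the lower group and 3.80 FPKM in the higher group. The 165 called genes beyond 8-fold had medians of 0.793 and 9.99 FPKM. At these levels the SE recovered from the test statistic is smaller than the deposited p-value implies, so none is given.

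Across the 8 groups, genes that rose had higher median levels in the crown than in the stem of the same day and water regime. Genes that fell had higher median levels in the stem of the same day and water regime. Both sets were listed and called by their drought crown values, so these medians are a description and not a test. For the genes that rose, crown above stem is in part set by that choice, and 624 of them were not listed in the drought stem table. Medians of all listed genes lay between 11.029 FPKM (watered stem, day 9) and 11.766 FPKM (drought crown, day 9). Median levels of the 1553 higher genes were 9.63 FPKM in the watered crown at day 9 and 4.05 FPKM at day 6. In the drought stem they were 2.69 FPKM at day 9 and 1.91 FPKM at day 6, and in the watered stem 3.43 and 2.40 FPKM. Of these genes, 896 (57.7%) had their highest value of all 8 groups in the drought crown at day 9 and 551 (35.5%) in the watered crown at day 9. Among all listed genes the shares were 23.9% and 16.2%. The first share holds the call itself, since a gene was chosen for a high day 9 value. The 504 lower genes had medians of 23.2 FPKM in the watered crown at day 9 and 37.7 FPKM at day 6, 33.8 and 58.8 FPKM in the drought stem, and 44.6 and 64.7 FPKM in the watered stem. Their highest value was in the watered stem at day 6 for 303 genes (60.1%, against 22.1% of all listed genes). It was in the drought crown at day 6 for 26 (5.16%, against 7.78% of all listed genes).

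**Figure D2:**
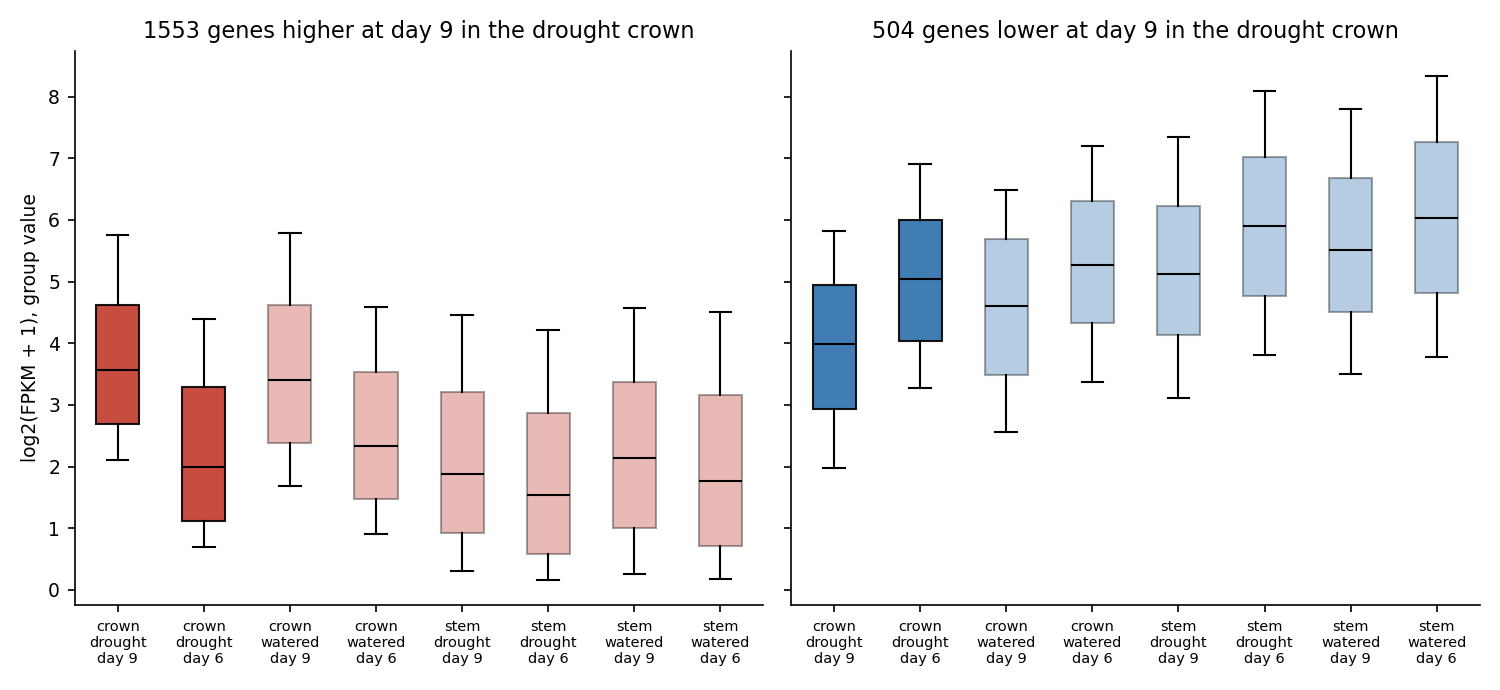
Levels of the called genes in all 8 groups, as log2(FPKM + 1) of the group values, for the 1553 genes higher (left) and the 504 genes lower (right) at day 9 in the drought crown. Boxes run between the quartiles with the median as a line, whiskers run between the 10th and 90th percentiles, and the 2 groups compared are drawn darker. Medians of the day 9 crowns are the highest on the left. On the right each stem median lies above that of the crown of the same day and water regime, and the watered crown at day 6 (37.7 FPKM) lies above the drought stem at day 9 (33.8 FPKM).

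The same ages were compared in watered crowns, which share no library with the drought crowns but come from the same 3 biological repeats. There 2049 genes (10.6%) were called, 1661 higher (8.56%) and 388 lower (2%) at day 9. Of the 1553 genes that rose in the drought crown, 1428 were listed in the watered table and 792 of these (55.5%) also rose, which is 47.7% of the genes that rose in watered crowns. Of the 504 genes that fell, 198 of 503 listed (39.4%) also fell, which is 51% of those that fell in watered crowns. The sign of the watered change was the same for 96.6% of the listed higher genes and 96% of the listed lower genes, whereas 52.8% of all genes in the watered table had a positive and 47.2% a negative sign. The median log2 fold change of the higher genes was 1.60 in drought crowns and 1.14 in watered crowns, and that of the lower genes was -1.10 and -0.74. Genes chosen by their drought value tend to be larger there by that choice alone, so these medians are not a test.

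The share of rises that were also called in watered crowns was then taken by size. Of the listed genes that rose less than 2-fold in the drought crown, 42.8% also rose in watered crowns. The share was 48.6% for rises of 2- to 4-fold, 68% for 4- to 8-fold and 78.9% for more than 8-fold. Over all genes listed in watered crowns, 8.56% rose. The last class held 164 genes, 147 of them listed in watered crowns. Its median level was 10.0 FPKM at day 9 and 0.783 FPKM at day 6 under drought, and 7.38 and 2.0 FPKM in watered crowns. The falls did not follow the same order. Of falls under 2-fold, 30.1% were also called in watered crowns, against 45% at 2- to 4-fold and 35.3% of 17 genes at 4- to 8-fold. The 125 higher genes that the watered table does not list had low levels, with medians of 3.38 FPKM at day 9 and 0.680 FPKM at day 6 under drought and of 1.35 and 0.699 FPKM in watered crowns. Sevir.9G325300, the 1 lower gene not listed there, stood at 1.11 FPKM at day 9 and 2.90 FPKM at day 6 under drought.

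Whether the age change itself differed between drought and watered crowns was tested gene by gene, as the difference between the 2 log2 fold changes over its SE, with Benjamini-Hochberg adjustment over the 16836 genes at 2 FPKM or more in all 4 groups. The difference passed for 32 genes (0.19%), in the positive direction for 18 (0.107%) and in the negative for 14 (0.0832%), while 538 had an unadjusted p under 0.05. The median SE of the difference was 0.445, and the smallest difference that passed was 1.57 in size. At an adjusted p under 0.01, 8 genes passed. The test rests on a normal approximation, as the authors' own p-values do, and treats groups of the same 3 repeats as independent, so differences of single genes are given with their SE and without a p. Each difference below passed at 0.05 unless said otherwise.

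The 18 genes with a positive difference had median levels of 40.1 FPKM at day 9 and 5.35 FPKM at day 6 in drought crowns, and 7.56 and 8.72 FPKM in watered crowns. Of them, 16 rose under drought and were not called in watered crowns, 1 (Sevir.3G203900) was called in both, and 1 (Sevir.9G242900) fell in watered crowns and was not called under drought, at 6.14 FPKM at day 9 and 2.74 FPKM at day 6 under drought and at 3.49 and 8.49 FPKM in watered crowns. Sevir.5G290900 (chromosome 5, 33546504 to 33547993), also among the largest rises whose watered change had the opposite sign, was at 26.9 FPKM at day 9 and 2.55 FPKM at day 6 under drought (log2 fold change 3.40, SE 0.43, q = 0.00091 in the authors' deposited table). It was at 7.59 and 7.61 FPKM in watered crowns, a difference of 3.41 (SE 0.62). Sevir.5G302500 (chromosome 5, 34362836 to 34363959) stood at 179 FPKM at day 9 and 21.6 FPKM at day 6 under drought, and at 7.58 and 6.17 FPKM in watered crowns (difference 2.75, SE 0.56). In drought stems it rose too, to 232 FPKM against 51.9 FPKM (q = 0.00091 in the authors' deposited table), and in watered stems it was at 5.53 and 5.76 FPKM. Its level was therefore higher in each drought group than in any watered group. Sevir.2G223700 (chromosome 2, 30657716 to 30658958) was also tested. It was at 53.8 FPKM at day 9 and 4.87 FPKM at day 6 in drought crowns, at 48.2 and 3.63 FPKM in drought stems, and at no more than 4.03 FPKM in watered groups (difference between crowns 2.88, SE 0.65).

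Sevir.9G332400, Sevir.9G332600 and Sevir.9G333100, 3 of the 18 genes, lie between 36574932 and 36713346 on chromosome 9. Sevir.9G332400 stood at 162 FPKM at day 9 and 29.9 FPKM at day 6 under drought, and at 74.3 and 64.6 FPKM in watered crowns (difference 2.24, SE 0.46). Sevir.9G332600 stood at 53.6 and 10.5 FPKM under drought, and at 14.8 and 14.1 FPKM in watered crowns (difference 2.28, SE 0.52). Sevir.9G333100 stood at 194 and 48.6 FPKM under drought, and at 94.0 and 94.3 FPKM in watered crowns (difference 2.0, SE 0.45). In each of the 3, the drought value was below the watered value at day 6 and above it at day 9.

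The 14 genes with a negative difference were mostly genes that rose in watered crowns and not, or less, under drought. Their median levels were 5.46 FPKM at day 9 and 6.19 FPKM at day 6 in drought crowns, and 61.5 and 6.02 FPKM in watered crowns. Of them, 7 rose in watered crowns and were not called under drought, and 4 (Sevir.1G264300, Sevir.4G195000, Sevir.5G028400 and Sevir.8G014000) rose in both. Sevir.4G184900 (chromosome 4, 27616667 to 27621153) had the smallest p of the 16836. It was at 2.62 FPKM at day 9 and 2.31 FPKM at day 6 under drought, and at 63.0 and 3.26 FPKM in watered crowns (difference -4.09, SE 0.66). Sevir.5G028400 (chromosome 5, 2049680 to 2051384) rose in both, to 8.04 FPKM against 2.31 FPKM under drought and to 105 FPKM against 4.88 FPKM in watered crowns (difference -2.62, SE 0.60). Sevir.1G264300 (chromosome 1, 32706781 to 32707949) was the most abundant of the 14 at day 9. It rose to 70.0 FPKM against 35.4 FPKM under drought and to 462 FPKM against 59.0 FPKM in watered crowns (difference -1.99, SE 0.47).

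Of the 14, 2 fell under drought without a call in watered crowns. One was Sevir.1G152600, described above, with a difference of -2.44 (SE 0.49). The other was Sevir.4G155800 (chromosome 4, 21039721 to 21041891), at 34.2 FPKM at day 9 and 104 FPKM at day 6 under drought and at 139 and 129 FPKM in watered crowns (difference -1.71, SE 0.41). It fell in drought stems as well, to 42.3 FPKM against 174 FPKM (q = 0.00091 in the authors' deposited table). Sevir.2G441500 (chromosome 2, 46782021 to 46783410) had a similar profile, at 4.31 FPKM at day 9 and 18.5 FPKM at day 6 under drought and at 18.2 and 18.0 FPKM in watered crowns, but its difference missed the threshold (-2.12, SE 0.55). Sevir.9G555500 (chromosome 9, 54153527 to 54154290), at 18.4 FPKM at day 9 and 1.05 FPKM at day 6 under drought (log2 fold change 4.13, q = 0.00416 in the authors' deposited table) and at 4.15 and 5.78 FPKM in watered crowns, was too low at day 6 for the difference to be tested.

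Only 2 genes were called in opposite directions in the 2 water regimes, and both are named after their values were seen. Sevir.3G203900 (chromosome 3, 14907875 to 14910722) rose under drought, to 11.1 FPKM against 5.32 FPKM (q = 0.0295), and fell in watered crowns, to 3.11 FPKM against 8.94 FPKM (q = 0.00167 in the authors' deposited tables). Its difference was 2.58 (SE 0.52). Sevir.3G354700 (chromosome 3, 42621706 to 42622277) fell under drought, to 4.80 FPKM against 14.9 FPKM (q = 0.0302), and rose in watered crowns, to 61.9 FPKM against 22.8 FPKM (q = 0.00167 in the authors' deposited tables). Its difference was -3.07 (SE 0.65).

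**Figure D3:**
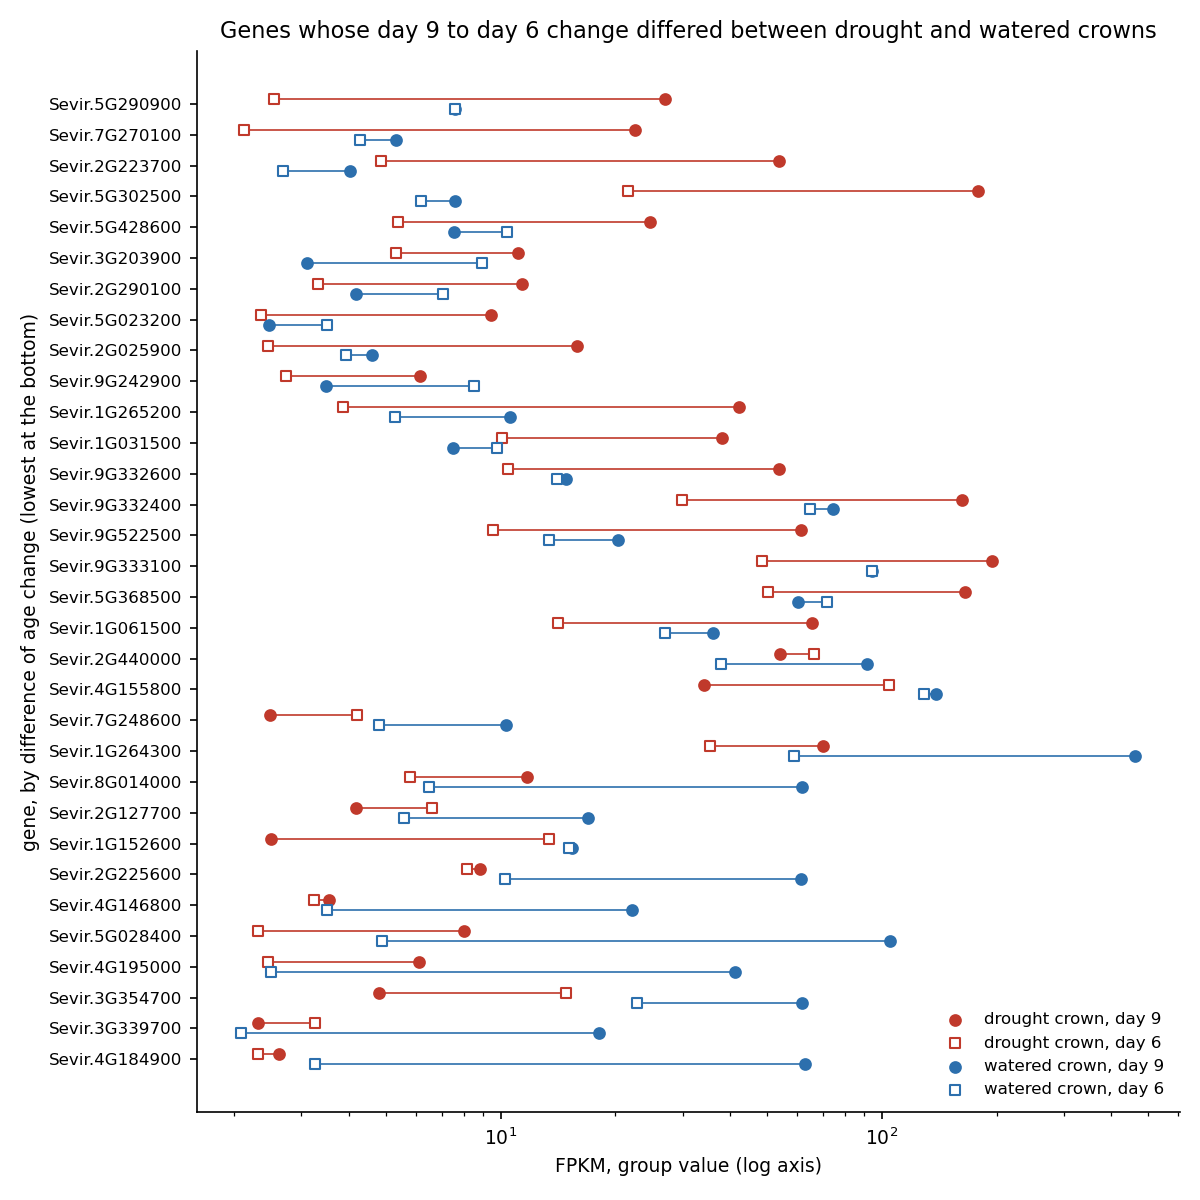
The 32 genes whose age change differed between drought and watered crowns, ordered by the difference with the most positive at the top. For each gene the group FPKM (log axis) at day 9 (filled circle) and day 6 (open square) is drawn for drought crowns in red above watered crowns in blue. In most of the upper rows the red lines are long and the blue ones short. In most of the lower rows the blue lines are long, as for Sevir.4G184900 at 63.0 FPKM in watered crowns at day 9.

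The drought stem, again with no library in common, was compared over the same days. Of 18213 genes listed there, 2073 (11.4%) were called, 744 higher (4.08%) and 1329 lower (7.3%) at day 9. Of the 1553 genes that rose in the drought crown, 624 were not listed in the stem table. These had median levels of 5.10 FPKM at day 9 and 1.03 FPKM at day 6 in the drought crown, and of 0.681 and 0.369 FPKM in the drought stem. Among the 929 listed, 172 (18.5%) rose in the stem, 23.1% of the genes that rose there, and 42 (4.52%) fell. The sign was the same in the stem for 66.6% of the 929, against 49% of all genes in the stem table with a positive sign. In the crown their median log2 fold change was 1.35, and in the stem it was 0.36. All 504 genes that fell in the crown were listed, 288 (57.1%) fell in the stem, which is 21.7% of the genes that fell there, and 22 (4.37%) rose. The sign was the same in the stem for 80.8% of them, against 51% of all genes there with a negative sign. In the crown their median log2 fold change was -1.10, and in the stem it was -0.88. Genes of both directions were chosen by their crown value, so the medians of crown and stem are not a test.

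The age change differed between drought crown and drought stem for 515 of 16128 genes tested (3.19%), with 306 positive (1.9%) and 209 negative (1.3%), and 2153 had an unadjusted p under 0.05. At an adjusted p under 0.01, 258 passed. Of the 306, 134 rose in the crown and were not called in the stem, and 22 were called in neither. Another 113 fell in the stem and were not called in the crown, and 34 rose in the crown but fell in the stem. Median levels of the 306 in the drought crown were 20.2 FPKM at day 9 and 9.85 FPKM at day 6. In the drought stem they were 9.92 and 17.6 FPKM. Of the 209, 143 rose in the stem and were not called in the crown, and 16 were called in neither. Another 30 fell in the crown and were not called in the stem, and 20 fell in the crown and rose in the stem. Median levels of the 209 in the drought crown were 22.4 FPKM at day 9 and 32.9 FPKM at day 6. In the drought stem they were 35.3 and 14.7 FPKM. The numbers of differing genes in the 2 tests are not compared, because the genes tested differ.

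Sevir.1G265400 (chromosome 1, 32805727 to 32807496) had the largest positive difference between the regions relative to its SE (4.08, SE 0.52). It rose in the drought crown, to 71.0 FPKM at day 9 against 12.8 FPKM at day 6, and fell in the drought stem, to 10.3 FPKM against 31.4 FPKM, with log2 fold changes of 2.47 (SE 0.39) and -1.61 (SE 0.34), both q = 0.00091 in the authors' deposited tables. Sevir.3G232700 (chromosome 3, 17997200 to 17999552) rose in the drought crown to 66.3 FPKM against 21.1 FPKM and fell in the drought stem to 17.8 FPKM against 41.6 FPKM (difference 2.87, SE 0.43). It rose in watered crowns as well, to 89.3 FPKM against 33.2 FPKM (q = 0.00091 in the authors' deposited table). The 2 genes that rose in both regions and still differed, named after their values were seen, were Sevir.2G029300 and Sevir.8G187300. Sevir.2G029300 (chromosome 2, 2291217 to 2292083) rose to 145 FPKM against 5.91 FPKM in the drought crown and to 29.8 FPKM against 7.86 FPKM in the drought stem (difference 2.69, SE 0.63). Sevir.8G187300 (chromosome 8, 32181080 to 32186191) rose to 34.1 FPKM against 2.94 FPKM in the crown and to 31.2 FPKM against 14.4 FPKM in the stem (difference 2.42, SE 0.55). Sevir.2G057600 fell in both and less in the crown, to 4.18 FPKM against 11.8 FPKM, than in the stem, to 4.84 FPKM against 72.3 FPKM (difference 2.41, SE 0.65).

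In the negative direction, Sevir.8G210100 (chromosome 8, 34499523 to 34501272) had the smallest p. It stood at 30.6 FPKM at day 9 and 30.5 FPKM at day 6 in the drought crown, and at 142 and 2.15 FPKM in the drought stem (difference -6.04, SE 0.64). Sevir.5G154900 (chromosome 5, 13583979 to 13585392) fell in the crown, to 28.8 FPKM against 76.8 FPKM, and rose in the stem, to 40.1 FPKM against 6.92 FPKM (difference -3.95, SE 0.47). The abundant Sevir.8G262000 (chromosome 8, 39807865 to 39808225) fell to 719 FPKM against 1323 FPKM in the drought crown (q = 0.032 in the authors' deposited table) and rose to 1318 FPKM against 240 FPKM in the drought stem (difference -3.34, SE 0.45). In both genes the day 9 level of the stem was above that of the crown, and the day 6 level below it. The entry of Sevir.8G262000 spans 360 bp, so its level is less certain than that of a longer gene.

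**Figure D4:**
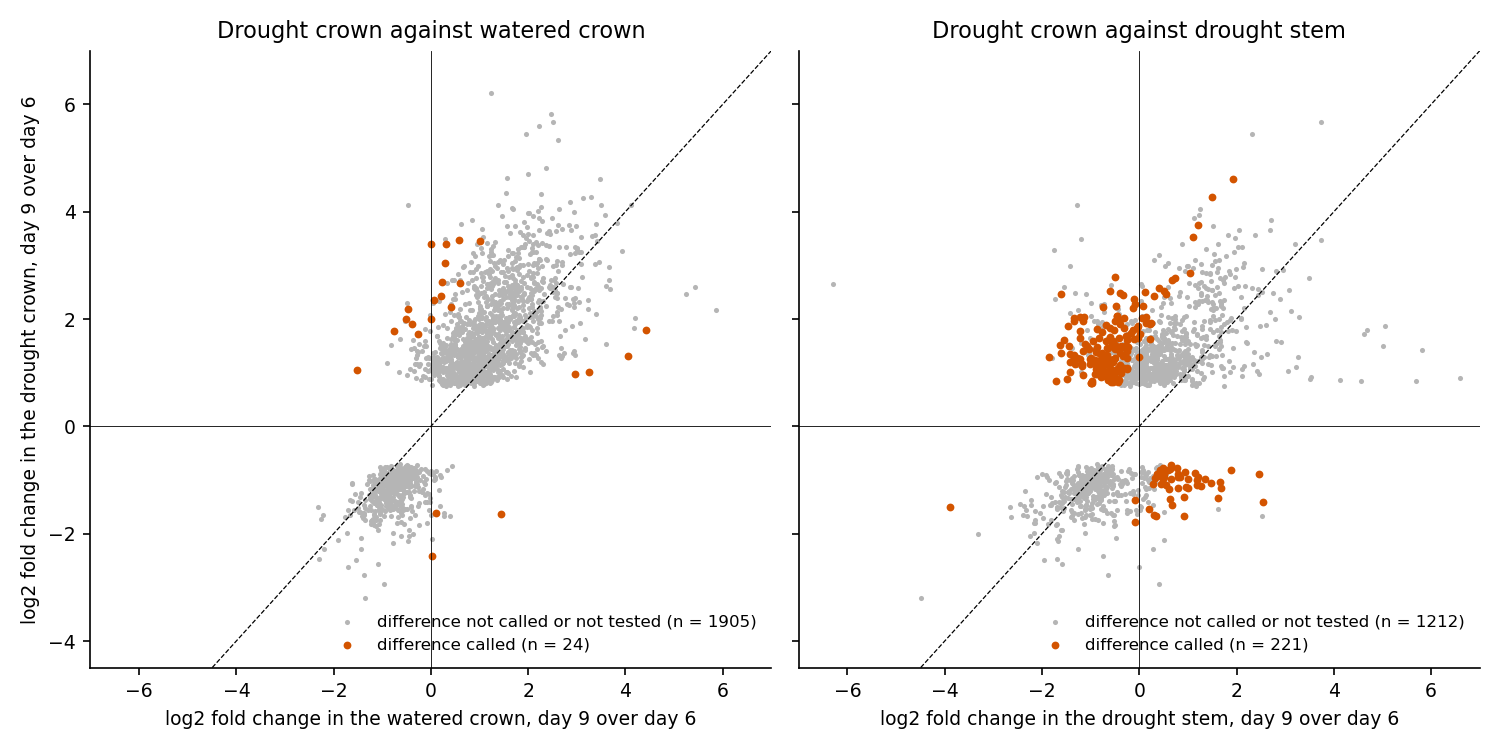
Log2 fold change (day 9 over day 6) of the genes called in the drought crown, on the vertical axis, against that in the watered crown (left) and in the drought stem (right). Each point is a gene above 0 FPKM in the groups plotted, orange points are genes whose difference between the 2 changes passed at an adjusted p under 0.05, and the dashed line marks equal change. Most points on the left share their sign, whereas on the right many orange points lie in the quadrants of opposite sign.

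By position, chromosome 8 held the largest share of higher genes. Of its 1083 listed genes, 155 (14.3%) rose in the drought crown, against 1392 of 18346 (7.59%) on chromosomes 1 to 7 and 9, where the share by chromosome lay between 6.91% and 8.42%. The share of lower genes on chromosome 8 was 2.12%, within the range of the other chromosomes (2.01% to 3.11%). In watered crowns 13.8% of the genes listed on chromosome 8 rose, against 8.24% on the others, and in drought stems 6.33%, against 3.96%. Genes of chromosome 8 had a lower median level than the rest, at 9.01 FPKM against 11.7 FPKM. Within the lowest class of mean FPKM, 19.7% of chromosome 8 genes rose, against 11.8% on the other chromosomes, and in the next classes 18.4% against 7.96% and 9.32% against 5.31%. In the highest class the shares were 4.93% and 5.42%. Along chromosome 8 in steps of 5 Mb, the share lay between 8.33% and 22.4%, and it was highest between 30 and 35 Mb, where 37 of 165 genes rose. This pattern was seen in the values and was not tested.

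**Figure D5:**
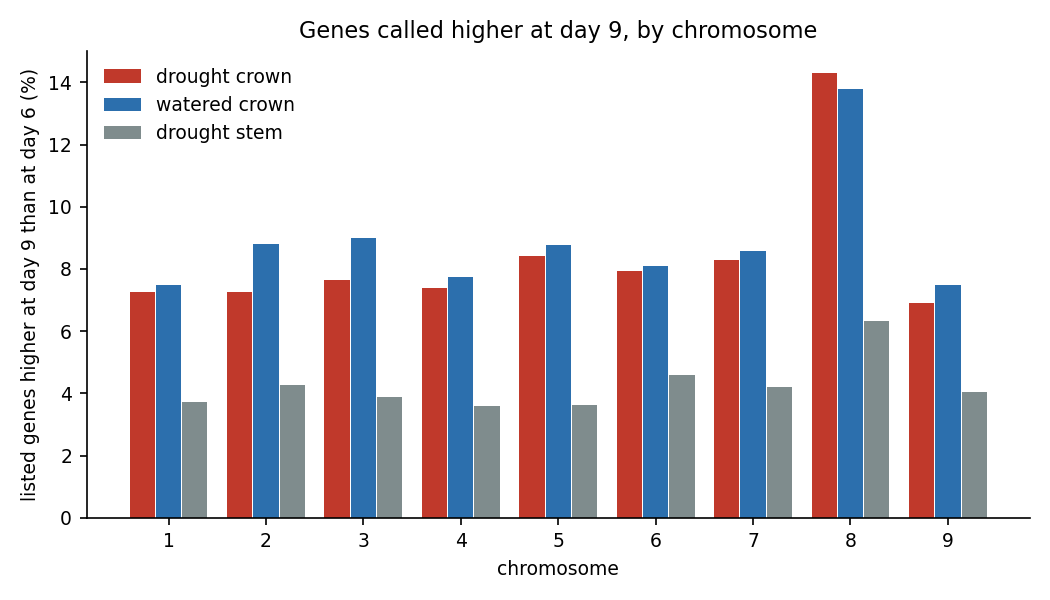
Share of listed genes called higher at day 9 than at day 6 on each of the 9 chromosomes, in drought crowns (red), watered crowns (blue) and drought stems (grey). Bars start at 0, and chromosome 8 stands above the other chromosomes in all 3 comparisons, at 14.3%, 13.8% and 6.33%.

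Most called genes had no neighbour called in the same direction. Genes listed at the same position as another gene were left out here, so the genes on either side of them counted as adjacent. Genes not placed on a chromosome were left out too. Over all listed genes, 7.97% were higher and 2.59% lower. Along the chromosomes, 1055 higher genes stood alone, and there were 150 pairs of adjacent listed genes, 40 runs of 3, 7 runs of 4 and 4 runs of 5. The lower genes gave 434 single genes, 24 pairs and 2 runs of 3. The runs were looked for after values had been seen, and genes that lie side by side and resemble each other in sequence may share reads, which was not examined here.

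The run on chromosome 3 (344049 to 361770) comprised Sevir.3G005700 to Sevir.3G006100, whose log2 fold changes in the drought crown lay between 1.35 and 2.68 in the authors' deposited table. All 5 also rose in watered crowns, and none of the 4 listed in the drought stem rose there. Its most abundant gene at day 9, Sevir.3G005800, stood at 157 FPKM at day 9 and 27.9 FPKM at day 6 in drought crowns, at 86.8 and 42.4 FPKM in watered crowns, and at 4.78 and 6.29 FPKM in drought stems. The run on chromosome 8 (4885741 to 5033837), Sevir.8G056400 to Sevir.8G057600, likewise rose in watered crowns in all 5 genes. Its Sevir.8G057400 stood at 119 FPKM at day 9 and 47.6 FPKM at day 6 in drought crowns, and at 72.5 and 119 FPKM in drought stems (difference 2.03, SE 0.41). Of the run on chromosome 5 (29161082 to 29235363), Sevir.5G242200 to Sevir.5G242800, 4 of 5 genes rose in watered crowns, and its levels at day 9 lay between 3.69 and 15.8 FPKM.

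The run on chromosome 9 (36478486 to 36605588), Sevir.9G332000 to Sevir.9G332700, includes Sevir.9G332400 and Sevir.9G332600 of the genes that differed from watered crowns. All 5 rose in the drought crown, with log2 fold changes between 1.28 and 3.58 in the authors' deposited table, and 1 of them, Sevir.9G332700, was called in watered crowns. The first of the run, Sevir.9G332000, stood at 298 FPKM at day 9 and 123 FPKM at day 6 under drought, and at 141 and 92.9 FPKM in watered crowns, and its difference did not pass (0.67, SE 0.46). Sevir.9G332200 stood at 50.2 and 12.1 FPKM under drought and at 23.2 and 15.5 FPKM in watered crowns (difference 1.47, SE 0.49, not past the threshold), and it fell in drought stems, to 4.53 FPKM against 10.5 FPKM (q = 0.0343 in the authors' deposited table). Sevir.9G332000 and Sevir.9G332600 also rose in drought stems (q = 0.0448 and q = 0.00359 as the authors' deposited table has them). In this run, therefore, 2 of the 4 genes tested passed against watered crowns, and Sevir.9G332700 was not tested, because it stood at 1.86 FPKM at day 6 under drought.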

How the data were processed

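RNA sequencing data of 24 libraries (8 groups of 3) were used as the authors deposited them, in 28 tables, 1 for each pair of groups. Per the file headers, each table gives 1 FPKM per gene and group, the log2 fold change, a test statistic (a score), a p-value and a q-value. FastQC, cutadapt and Cuffdiff were used, per the submitters' processing notes, whereas aligner and build are not given in the sources, and the identifiers carry gene model version 1.1. The deposited q-values equal a Benjamini-Hochberg adjustment over all 531416 rows jointly (largest deviation 5.3e-07), so they do not limit the share of false calls within 1 table.

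Tables were read with Python 3.11.15 (pandas 2.3.3, numpy 2.4.6, scipy 1.17.1). The deposited p-value corresponds to a normal score of the square root of 3 times the test statistic. The median ratio between both was 1.0, and at 2 FPKM or more in the lower group it lay between 0.955 and 1.03 (5th and 95th percentiles). The ratio fell to a median of 0.78 where the lower group was below 1 FPKM, and SE of such genes can be well too small (5th percentile of the ratio 0.388). SE were computed from this score. The difference between 2 age changes without a common library was tested as a Wald score with a two-sided p from the normal distribution and Benjamini-Hochberg adjustment over all genes tested, among genes at 2 FPKM or more in all 4 groups. This test was added after the tables were seen: the design had held that it was impossible, since library values are lacking. The scripts were tested on simulated data.

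Named genes are called genes above 0 FPKM in both groups, whose higher group reached 13.0 FPKM, the median over listed genes. For each direction they are the 2 largest by fold, by FPKM difference, by fold among genes also called in watered crowns, and by fold among genes of opposite sign there, followed by the 2 most abundant listed at 0 on either day. Genes named for a differing age change were those of smallest p, or chosen after values were seen. The members and lists were chosen with earlier results of these data known. The 20 gene lists had 0 members, because no identifier is paired with a name.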

Additional observations from a re-analysis of the deposited data

Results flagged for a closer look

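The age change (day 9 over day 6, log2) differed between drought crowns and watered crowns for 32 genes and between drought crowns and drought stems for 515 genes, each by a test of the difference itself at an adjusted p under 0.05. Of the genes named by the rule, 2 are among the 32. Both were named among the largest drought changes of opposite sign in watered crowns. That choice uses the values that make up the difference, so their place among the 32 is in part set by it. Sevir.1G152600 had a difference of -2.44 (SE 0.49), since it fell to 2.50 FPKM at day 9 under drought, against 13.4 FPKM at day 6, and stood at 15.4 and 15.1 FPKM in watered crowns. Sevir.5G290900 had a difference of 3.41 (SE 0.62), since it rose to 26.9 FPKM under drought, against 2.55 FPKM, and stood at 7.59 and 7.61 FPKM in watered crowns. What underlies these differences was not tested.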

How the results depend on the processing

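The excess of higher over lower genes in the drought crown was kept under each alternative run. At an adjusted p under 0.01, 1054 genes were called, 846 higher and 208 lower; in watered crowns 991 (870 and 121) and in drought stems 1016 (363 and 653). Among genes whose mean FPKM reached the median, 902 were called in drought crowns (533 higher), 907 in watered crowns (644 higher, 29% lower against 18.9% of all called) and 1247 in drought stems (312 higher, 75% lower against 64.1%). With at least a 2-fold change, 328 genes were lower in drought crowns and 210 in watered crowns. Adjustment within the table alone kept 1784 of the 2057 genes (1363 higher, 421 lower). A pseudocount of 1 gave medians of 1.30 and -1.03 for higher and lower genes. Of the genes named by the rule, Sevir.8G121100, Sevir.3G080800, Sevir.6G242900 and Sevir.7G160000 do not pass 0.01, nor do these genes named for other reasons: Sevir.1G264300, Sevir.2G057600, Sevir.3G203900, Sevir.3G354700, Sevir.4G195000, Sevir.5G167100, Sevir.5G242200, Sevir.5G242800, Sevir.8G014000, Sevir.8G262000 and Sevir.9G325300.

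The difference between drought and watered crowns passed for 51 genes (30 positive) when all 4 groups had only to be above 0 FPKM, for 8 at an adjusted p under 0.01 (4 positive, 4 negative), and for 22 when the larger of 2 SE was used. The difference between drought crown and stem passed for 258 at 0.01 (149 positive, 109 negative) and for 478 with the larger SE. Of the crown and stem differences given above that passed, only that of Sevir.2G057600 did not pass 0.01. No paired analysis was possible because the tables hold 1 value per group, and for that reason neither leaving out a repeat nor a block for repeats was run. Depth is unknown, and the SE of genes under 1 FPKM are the least certain.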
